A study of Mus musculus with 4 samples.

Results

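Small nucleolar RNAs (snoRNAs), small Cajal body RNAs (scaRNAs) and the long transcripts that carry them were examined in mouse induced regulatory T cells. The members were taken by a rule on symbols, written with earlier results of these data known, because of which Rnu73b was named. The rule took every gene whose symbol started with Snord, Snora, Scarna or Snhg, and the named genes Gas5 and Rnu73b. This was met in both tables by 115 symbols, namely 65 Snord genes with Rnu73b among them, 31 Snora, 8 Scarna and 11 Snhg genes. A mean of at least 1 FPKM (fragments scaled by transcript length and by library depth) over the 4 libraries was reached by 92 of them, of 10603 genes in all: 51 Snord, 27 Snora, 4 Scarna and 10 Snhg genes. Of the other 23, 20 were listed at 0 in all 4 libraries (14 Snord, 4 Snora and 2 Scarna genes). The remaining 3, Scarna6, Scarna13 and Snhg11, were above 0 but below the filter. Scarna13 lay just outside it with a mean of 0.812 FPKM and Scarna8 just inside with 1.59 FPKM. Gas5 had no row of its own: it was deposited as a row joined with a microRNA gene, Gas5,Mir5117, which is given beside the members and is not counted among the 92. Snhg7 was likewise joined with Snora43 and counts as a Snhg gene.

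The cells came from C57BL/6 mice, WT or MSC KO (musculin, a transcription factor gene). Sorted naive T cells of both genotypes were cultured for 3 days with plate-bound antibodies to CD3 and CD28 at 1 µg/ml and with TGF-beta at 2 ng/ml, which steers them towards a regulatory fate. There were 2 libraries of each genotype, and neither the age of the mice, nor the design of the MSC allele, nor whether the libraries came from separate animals is stated in the labels. RNA was extracted with a kit for microRNA, and 1 µg of total RNA entered a TruSeq RNA preparation. The p-values below measure the spread between these 4 libraries, which may be technical.

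Msc itself went against the labels: it was listed at 0.0243 FPKM in WT 1 and 0.0178 in WT 2, and at 0.331 in MSC KO 1 and 0.939 in MSC KO 2. Libraries are therefore called WT-labelled and MSC KO-labelled, and each direction below rests on those labels. Estimated depth was 25500000 fragments in WT 1 and 35200000 in WT 2, with 28100000 in MSC KO 1 and 34900000 in MSC KO 2. All 11 T cell markers passed the filter, with a summed level of 2100 to 2380 FPKM. Foxp3, the defining factor of regulatory T cells, was at 62.8 and 66.0 FPKM in the WT-labelled libraries and at 2.97 and 7.05 in the MSC KO-labelled ones. Lrrc32 (23.9 and 26.0 against 5.78 and 9.46 FPKM) and Itgae (3.58 and 3.99 against 1.35 and 0.393) were also lower in the latter, and Ctla4 (112 and 120 against 217 and 188) was higher. The 6 induced Treg markers summed to 521 to 604 FPKM, mostly Il2ra and Ctla4, with a median difference of -0.78 on the log2(FPKM + 1) scale. Of other cell types, 6 of 7 B cell markers and 7 of 8 myeloid markers stayed under 1 FPKM in all 4 libraries, and the mast cell markers Cpa3, Mcpt4, Fcer1a and Ms4a2 were listed at 0 in each. Myeloid markers summed to 2.56 and 1.81 FPKM in the WT-labelled libraries against 4.64 and 4.61. The gamma delta T and NK markers summed to 4.52 and 5.56 against 2.78 and 1.73, B cell markers to 7.57 and 7.23 against 6.54 and 5.19, and CD8 markers to 11.3 and 11.7 against 9.13 and 19.8. The erythroid markers, 2 of 4 found, summed to at most 0.056 FPKM. The part of these differences in the results below was not tested. In bulk RNA, fewer cells of a type and less RNA per cell cannot be told apart.

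Box C/D snoRNAs, the Snord genes, guide the methyltransferase fibrillarin to riboses of ribosomal and spliceosomal RNA. H/ACA snoRNAs, the Snora genes, guide the pseudouridine synthase dyskerin, and scaRNAs guide both kinds of change on spliceosomal RNAs in Cajal bodies. In mammals most are cut from introns of a host transcript after splicing, so that host and snoRNA start from a shared precursor but have separate fates. Many hosts code for ribosomal proteins or translation factors. Others, named Snhg (small nucleolar RNA host gene) or Gas5, code for no known long protein, and several of their spliced transcripts are known to be degraded by nonsense-mediated decay during translation.

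The annotated lengths set the classes apart: 64 to 238 bases for Snord genes (median 78.5), 127 to 196 for Snora genes (median 132) and 70 to 414 for Scarna genes (median 202). The following sequences, from GENCODE M21 (GRCm38), belong to the members on which the comparisons turn. The first pair lies in the same host gene, Rps3a, and is shown because only Rnu73b kept a direction in both tables. Capitals mark the letters TGATGA (box C) and CTGA (box D).
Rnu73b: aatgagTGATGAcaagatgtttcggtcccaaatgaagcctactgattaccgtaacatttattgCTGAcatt
Snord73a: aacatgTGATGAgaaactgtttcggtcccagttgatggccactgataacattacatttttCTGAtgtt

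Rnu73b (71 bases) lies at chr3:86140618-86140688 and Snord73a (68 bases) at chr3:86138791-86138858, both on the minus strand. Their longest shared run is the tgtttcggtccca that starts at base 18 of each, 13 bases long. The next C/D sequences are those of the member with the highest mean (Snord104), the member inside the Gas5 gene (Snord47) and the member inside Snhg6 (Snord87). They are followed by members at least 2-fold lower (Snord4a, Snord67) or higher (Snord83b) in both tables.
Snord104: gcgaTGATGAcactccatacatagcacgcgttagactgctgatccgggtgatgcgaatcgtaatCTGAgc
Snord47: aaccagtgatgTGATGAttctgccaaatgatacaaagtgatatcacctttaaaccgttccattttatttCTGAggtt
Snord87: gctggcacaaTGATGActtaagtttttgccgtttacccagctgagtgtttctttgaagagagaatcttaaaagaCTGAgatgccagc
Snord4a: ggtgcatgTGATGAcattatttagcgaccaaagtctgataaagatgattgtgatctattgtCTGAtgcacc
Snord67: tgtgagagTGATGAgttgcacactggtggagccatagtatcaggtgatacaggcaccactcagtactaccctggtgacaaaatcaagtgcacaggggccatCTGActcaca
Snord83b: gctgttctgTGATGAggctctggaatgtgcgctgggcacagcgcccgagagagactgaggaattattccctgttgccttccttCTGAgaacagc

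These lie at chr11:106500993-106501062 (Snord104, plus strand), chr1:161038082-161038158 (Snord47, plus), chr1:9942463-9942549 (Snord87, minus), chr11:78181686-78181756 (Snord4a, minus), chr2:91596070-91596180 (Snord67, plus) and chr15:80078498-80078591 (Snord83b, minus). The H/ACA members Snora61, inside Snhg12 at chr4:132310240-132310369, and Snora70, inside Rpl10 at chrX:74272484-74272620, both on the plus strand, are shown with the ACA near the 3′ end in capitals.
Snora61: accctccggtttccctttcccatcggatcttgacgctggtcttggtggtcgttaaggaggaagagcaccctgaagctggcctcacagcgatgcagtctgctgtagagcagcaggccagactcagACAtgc
Snora70: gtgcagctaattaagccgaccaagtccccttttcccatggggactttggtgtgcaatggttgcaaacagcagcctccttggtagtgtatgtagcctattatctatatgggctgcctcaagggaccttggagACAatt

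Of the 51 tested Snord genes, 33 had TGATGA starting within the first 15 bases and 47 had CTGA starting within the last 15, with 31 having both. Only the annotated strand was searched, and TGATGA and CTGA can overlap elsewhere in a sequence but not in these windows. Among 4606 other annotated transcripts of 60 to 160 bases, 0.0868% had both placed so. ACA near the 3′ end stood in 25 of 27 Snora sequences and in 6.17% of the other transcripts. A match of letters is a description and not a measured site. Of the 82 tested short members, 35 had a sequence lying wholly inside an annotated transcript of another gene, as Snora61 does in Snhg12 and Snora70 in Rpl10. Of the 104 short members, 98 carried in the deposited files the interval of a whole locus that another symbol shared, and 5 had an interval of at most 350 bases, so a short RNA and its host could not be told apart by position alone.

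The FPKM scale behaved differently for the shortest RNAs. For genes of 70 to 79 bases, the 10th percentile of values above 0 was 34.9 FPKM, which was 86.6 times the value that 1 fragment would have at the plain annotated length. This ratio was 60.2 at 130 to 139 bases (13.3 FPKM), 9.74 at 140 to 199 bases (1.95 FPKM) and 1.79 at 200 to 399 bases (0.164 FPKM). In genes of 1000 to 1999 bases it was 1.85, with a 10th percentile of 0.0413 FPKM. A short RNA was therefore mostly listed either at 0 or far above the value of 1 fragment at the plain annotated length, with few values between. How many fragments such a value stood for cannot be told, as the length used in the deposited scaling is not stated.

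**Figure D1:**
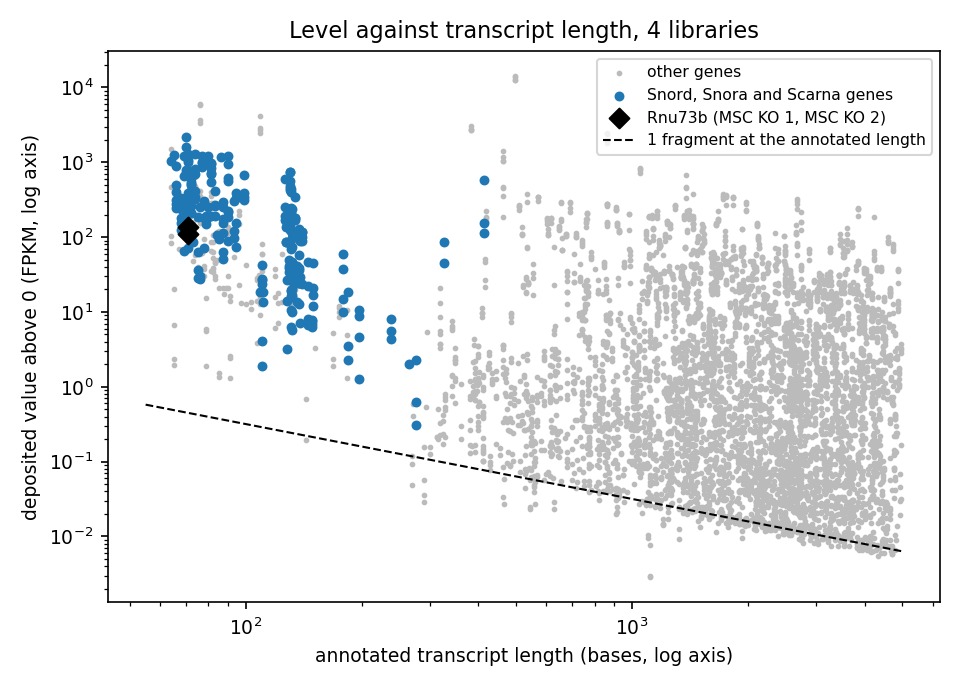
Deposited values above 0 (FPKM, log axis) against annotated transcript length (bases, log axis) in the 4 libraries. Blue points are Snord, Snora and Scarna genes, black diamonds Rnu73b in the MSC KO-labelled libraries, grey points other genes, and the dashed line the value of 1 fragment at the annotated length. Below about 140 bases most values lie far above the line, with Rnu73b at 110 and 135 FPKM.

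The number of short members above 0 differed between libraries within a label as well as between labels. Of 104 Snord, Snora and Scarna symbols, 51 were above 0 in WT 1 and 62 in WT 2, against 60 in MSC KO 1 and 71 in MSC KO 2. Their summed level was 10600 and 13100 FPKM in the WT-labelled libraries against 17300 and 23800 in the others, without overlap. Other symbols of short RNAs summed to 22600 and 17100 FPKM against 17600 and 17100. Genes that are not short RNAs summed to 766000 and 773000 against 795000 and 780000, also without overlap. The 11 Snhg genes summed to 1300 and 1280 FPKM in the WT-labelled libraries and to 1160 and 1280 in the others. The 56 protein-coding hosts of short members summed to 98800 and 98700 against 102000 and 107000. In the first table (WT 1 with MSC KO 1), 19 short members were at 0 in the WT-labelled library alone and 10 in the MSC KO-labelled library alone. In the second (WT 2 with MSC KO 2) these counts were 14 and 5. Depth differed between the libraries of the first table, and its part in these counts was not tested. Of the 104, only Rnu73b was at 0 in both WT-labelled libraries and above 0 in both others, and only Snord67 showed the opposite. Among 21504 genes that are not short RNAs, 152 showed the first pattern and 165 the opposite. Among 536 other symbols of short RNAs, 6 showed the first and 1 the opposite.

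**Figure D2:**
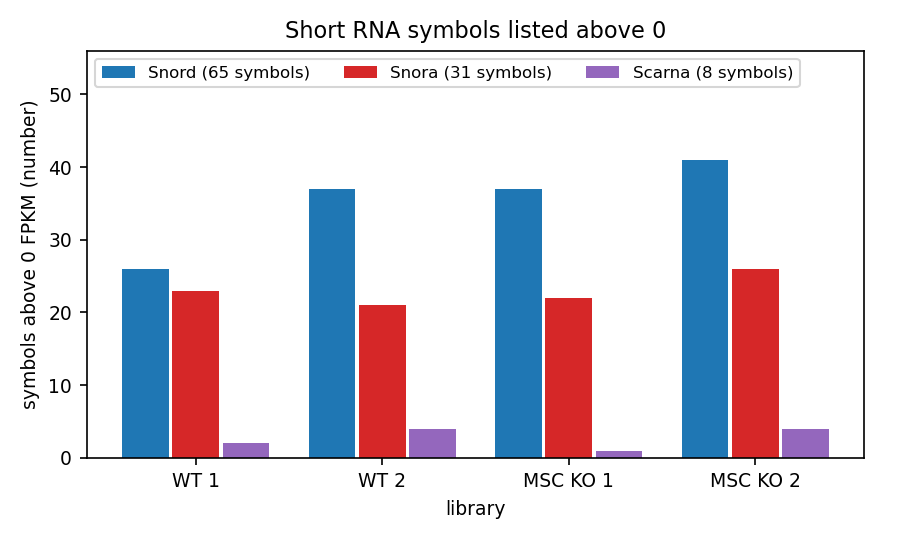
Number of Snord (blue, 65 symbols), Snora (red, 31) and Scarna (purple, 8) symbols listed above 0 FPKM in each library. Snord genes above 0 number 26 in WT 1 and 41 in MSC KO 2, with 37 in each of the other libraries.

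Short members varied between libraries of the same label far more than their hosts did. WT 1 and WT 2 differed at least 2-fold, on the log2(FPKM + 1) scale used throughout, in 48 of 82 tested short members (58.5%), in none of the 10 Snhg genes and in none of the 56 protein-coding hosts. Over all genes 105 differed so (0.99%), and 80 of those were among the 146 tested symbols of short RNAs of any kind. MSC KO 1 and MSC KO 2 differed 2-fold in 41 of the 82. The median absolute difference between WT 1 and WT 2 was 1.35 for Snord, 1.09 for Snora and 0.12 for Snhg genes, 0.05 for protein-coding hosts and 0.07 for all genes. The 2 tables gave differences between labels that lay apart by a median of 6.45 on the log2 scale for the 29 tested short members of 60 to 79 bases, 2.88 for the 14 of 80 to 99 bases, 2.19 for the 27 of 100 to 139 bases and 1.05 for the 10 of 140 to 350 bases. Spearman's rho between length and this distance was -0.29 over 81 genes that share the 4 libraries, given as a description.

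MSC KO-labelled and WT-labelled libraries were compared with limma on log2(FPKM + 1), with the table as a block and Benjamini-Hochberg adjustment over all 10603 genes, n = 2 libraries per label. Rnu73b alone of the 92 members had an adjusted p under 0.05, and it was the only gene of all those tested to do so (0.00943%). Rnu73b was at 0 in both WT-labelled libraries, so it passed the filter only through the other label and had to differ. With no filter on low values its adjusted p in limma was 0.206. An unadjusted p under 0.05 was reached by 33 members, where 20.4% of all genes reached it. Of the 33, 26 were higher in the libraries labelled MSC KO and 7 were lower, beside 9.2% and 11.2% of all genes. At least 2-fold higher in both tables were 15 members (16.3%; 8 Snord, 6 Snora and 1 Snhg gene) against 1.32% of all genes, and at least 2-fold lower in both were 4 (4.35%) against 0.811%. At least 2-fold apart in opposite directions in the 2 tables were 11 members (12.0%) against 0.245% of all genes. Among 64 other symbols of short RNAs, 14.1% were at least 2-fold higher in both tables, 1.56% lower in both and 9.38% in opposite directions. The members' shares were thus above those of all genes, the opposite one included, and the first and last were near those of the other short RNAs. The 2 libraries of each label did not overlap, with the MSC KO-labelled ones higher, in 34 members and lower in 5, where 26.6% and 32.5% of all genes showed each.

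The median difference (MSC KO-labelled minus WT-labelled, log2) was 0.61 over the 92 members and -0.02 over all genes. It was 0.52 for Snord, 1.06 for Snora, -0.95 for the 4 Scarna and 0.48 for Snhg genes, against 0.09 for the protein-coding hosts and 0.04 for 64 other symbols of short RNAs. In the first and second tables the medians were 0.18 and 0.38 for Snord genes and 0.31 and 1.01 for Snora genes. Leaving out MSC KO 2 took the Snord median to 0.00 and leaving out WT 2 took it to 1.97, while it was 1.55 with MSC KO 1 left out and 0.31 with WT 1 left out. The Scarna median had no stable sign: it was -2.56 when WT 1 was dropped and 1.16 when WT 2 was, and 2.20 when MSC KO 1 was dropped and -2.33 when MSC KO 2 was. All fits with a library left out also lacked the block for the table, so libraries were compared across tables.

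**Figure D3:**
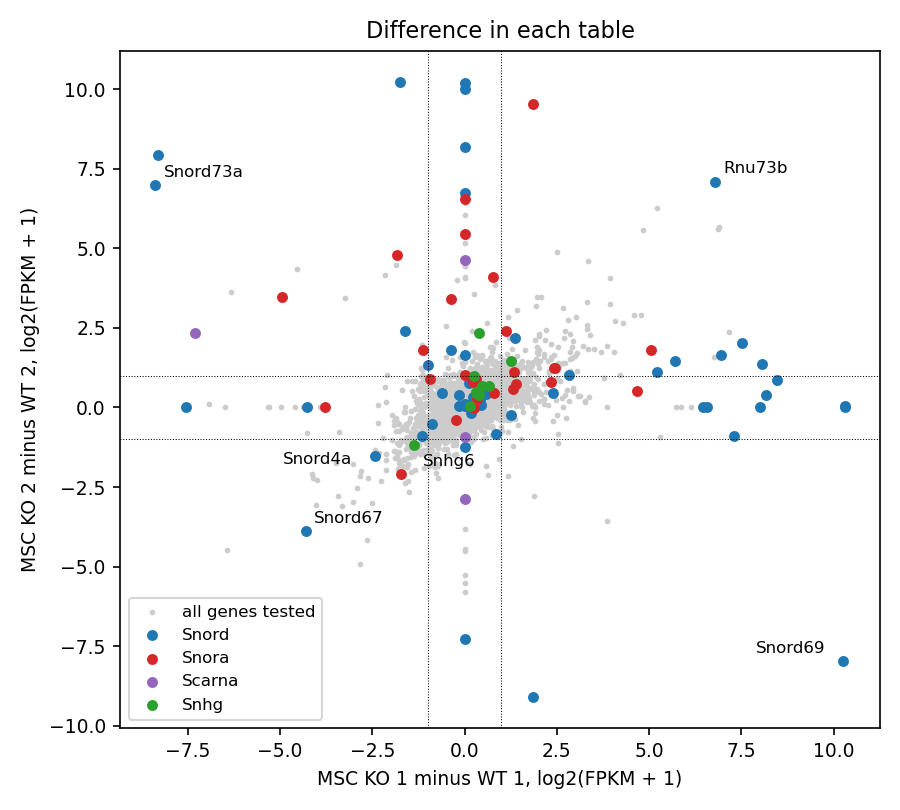
Difference between the MSC KO-labelled and the WT-labelled library in the first table (horizontal axis) and the second (vertical axis), both in log2(FPKM + 1). Grey points are all genes tested and coloured points the members by class, and dotted lines mark 2-fold. Rnu73b stands at 6.79 and 7.09, Snord67 at -4.30 and -3.88, and Snord69 at 10.25 and -7.98. Of the Snhg genes (green), Snhg6 (-1.36 and -1.19) and Snhg7,Snora43 (1.27 and 1.45) lie past 2-fold in both tables. Snhg9 does so in the second alone (2.33), and the others lie within 2-fold.

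Rnu73b, a C/D snoRNA gene in Rps3a, rose in the MSC KO-labelled libraries. It was listed at 0 FPKM in both WT-labelled libraries, at 110 in MSC KO 1 and at 135 in MSC KO 2. Labels did not overlap, and no fold can be given against values listed at 0. The fitted difference was 6.94 ± 0.12 (SE) on the log2(FPKM + 1) scale, with an adjusted p of 0.0402 in limma, and its size is set by the pseudocount. As Rnu73b passed the filter only through the MSC KO-labelled libraries, it had to differ. Its host Rps3a, a protein of the small ribosomal subunit, stood at 3240 and 3310 FPKM in the WT-labelled and 3250 and 3370 in the MSC KO-labelled libraries, a difference of 0.02 ± 0.06 (SE). Snord73a, from the same gene, was at 333 FPKM in WT 1 and 0 in WT 2, and at 0 in MSC KO 1 and 126 in MSC KO 2, so that it had opposite directions in the tables.

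The values of Rnu73b lay near the low end for RNAs of its size. Of 89 genes of 68 to 74 bases, 17 were above 0 in MSC KO 1, the lowest at 57.3 FPKM, and 3 of them lay below the 110 of Rnu73b. In MSC KO 2, 19 were above 0, the lowest at 47.7 FPKM, and 4 lay below its 135. In WT 1 and WT 2 the lowest values above 0 in this size class were 88.8 and 123 FPKM, in 10 and 15 genes. At 71 bases 1 fragment at plain length would be 0.501 FPKM in MSC KO 1 and 0.404 in MSC KO 2. Its adjusted p was under 0.05 under 7 of 13 alternatives and ranged from 0.00331 to 0.206. It was 0.0781 with a pseudocount of 5 FPKM, 0.206 with no filter, 0.0832 without a trend in the prior, 0.105 after quantile normalization, 0.0951 without WT 1 and 0.0507 without WT 2. In the authors' deposited tables Rnu73b had q-values of 0.184 and 0.237.

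Among the C/D genes with the highest means, Snord104 was at 304 FPKM in WT 1 and 777 in WT 2, against 2150 in MSC KO 1 and 1580 in MSC KO 2. It had no host row in the tables. Both MSC KO-labelled values lay above both WT-labelled values, with a difference of 1.92 ± 0.49 (SE; adjusted p = 0.197), but WT 1 and WT 2 were themselves over 2-fold apart. Snord47 was steadier, at 860 and 975 FPKM in the WT-labelled libraries and 1000 and 1220 in the others, without overlap (0.27 ± 0.08, adjusted p = 0.219). Snord96a, inside Gnb2l1 (the ribosomal scaffold protein RACK1), was at 719 and 843 against 955 and 987 FPKM, again without overlap (0.32 ± 0.09, adjusted p = 0.213).

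Snord83b, from the ribosomal protein gene Rpl3, was at 152 FPKM in WT 1 and 73.9 in WT 2, and at 392 in MSC KO 1 and 336 in MSC KO 2. Labels did not overlap and all 4 values were above 0, with a difference of 1.76 ± 0.24 (adjusted p = 0.139). The other C/D genes taken by the rule for large differences in both tables, Snord35b, Snord49a, Snord53 and Snord91a, shared another form. Each was at 0 in WT 1. Their levels were 63.0 to 208 FPKM in WT 2, 51.5 to 264 FPKM in MSC KO 1 and 175 to 542 FPKM in MSC KO 2. In Snord53, Snord49a and Snord91a MSC KO 1 exceeded WT 2 (181 against 72.6, 264 against 208 and 122 against 96.8 FPKM), and in Snord35b it did not (51.5 against 63.0). Their fitted differences of 3.59 to 4.77 therefore rest in part on the zeros of WT 1, the library with the lowest estimated depth, and their adjusted p-values were 0.231 to 0.282. With WT 1 left out the differences were 0.59 for Snord35b, 0.86 for Snord49a, 1.67 for Snord53 and 0.99 for Snord91a.

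The C/D genes at least 2-fold lower in both tables were Snord67 and Snord4a. Snord87 and Snord52 were also lower in both, without reaching 2-fold in each. Snord67 was at 18.8 and 13.7 FPKM in WT 1 and WT 2 and at 0 in both MSC KO-labelled libraries, the mirror image of Rnu73b at a lower level. Its fitted difference was -4.09 ± 0.16 (adjusted p = 0.0963), and 0.0256 without the table as a block, with a range of 0.0109 to 0.206 over 13 alternatives. As Snord67 passed the filter only through the WT-labelled libraries, it had to differ, and the size of the difference is set by the pseudocount (-7.33 to -2.08 over the alternatives). Its host Ckap5, a microtubule-binding protein gene, was at 23.9 and 26.0 against 21.0 and 25.7 FPKM. Snord4a, inside Rpl23a, was at 386 and 339 FPKM in WT 1 and WT 2 and at 70.6 and 119 in the MSC KO-labelled libraries, without overlap (-1.97 ± 0.27, adjusted p = 0.139). Leaving out either MSC KO-labelled library brought Snord4a past the threshold, with differences of -1.60 and -2.34, in a fit that then takes its residual spread from WT 1 and WT 2 alone.

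Of the C/D genes, 7 were at least 2-fold apart in opposite directions. Snord69, from the nucleolar GTPase gene Gnl3, was at 0 and 1220 FPKM in WT 1 and MSC KO 1 and at 252 and 0 in WT 2 and MSC KO 2. Snord58b, from Rpl17, was at 316 and 0 in the first table and at 0 and 244 in the second. Their differences of 1.13 and -0.19 had standard errors of 4.98 and 4.43, and each sign turned when WT 1 or MSC KO 1 was left out.

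H/ACA genes leaned higher in the libraries labelled MSC KO: 16 of 27 were higher in each table, beside 31.2% of all genes, and 2 were lower in each, beside 37.5%. None had an adjusted p under 0.05, and 12 were higher and 2 lower at an unadjusted p under 0.05, beside 9.2% and 11.2% of all genes. Snora65, from Rpl12, was at 478 and 432 FPKM in WT 1 and WT 2 and at 563 and 746 in MSC KO 1 and MSC KO 2, without overlap (0.51 ± 0.17, adjusted p = 0.243). Snora70, from Rpl10, was at 39.0 and 58.4 FPKM against 101 and 128, with no overlap (1.23 ± 0.11, adjusted p = 0.114). Snora70 falls outside the rule for named genes and was chosen after its values were seen, as a gene above 0 in all 4 libraries and more than 2-fold higher in both tables.

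Snora61, from Snhg12, was at 123 FPKM in WT 1 and 0 in WT 2, and at 446 and 746 in MSC KO 1 and MSC KO 2. The labels did not overlap, but the WT-labelled libraries disagreed, and the standard error was 2.10 around a difference of 5.70. Snora69, from Rpl39, was at 0 and 19.4 against 32.1 and 70.0 FPKM (3.42 ± 0.89, adjusted p = 0.2). Snora23, from the importin gene Ipo7, was the H/ACA gene at least 2-fold lower in both tables, at 2.27 and 18.2 FPKM in WT 1 and WT 2 and at 0 and 3.51 in the others. MSC KO 2 lay above WT 1 there, so the labels overlapped although the direction was shared (-1.90 ± 0.16, adjusted p = 0.114). With a library left out, the difference of Snora23 ran from -3.18 (WT 1) to -0.62 (WT 2). Snora68 was at 404 and 242 against 211 and 446 FPKM, and Snora34, whose row shared the locus of 2310037I24Rik, at 29.6 and 7.13 against 0 and 89.5. Both had opposite signs in the 2 tables.

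Of the 4 scaRNA genes tested, none kept a direction in both tables. Scarna2 was at 156 and 113 FPKM in WT 1 and WT 2 and at 0 and 575 in MSC KO 1 and MSC KO 2. Scarna10, inside the condensin subunit gene Ncapd2, was at 0 in WT 1 and MSC KO 1 and at 85.3 and 44.8 FPKM in WT 2 and MSC KO 2. Scarna3a, in Rfwd2 (a ubiquitin ligase gene), was above 0 in MSC KO 2 alone, at 23.6 FPKM.

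The long noncoding hosts were measured more evenly. Among the Snhg genes, 9 of 10 had higher values in MSC KO 1 and MSC KO 2 than in either WT-labelled library, and Snhg6 had lower ones, beside 26.6% and 32.5% of all genes without overlap. At an unadjusted p under 0.05 there were 6 higher and 1 lower, beside 9.2% and 11.2% of all genes. None had an adjusted p under 0.05. With the Gas5 row the median difference of the 11 rows was 0.39 (0.32 and 0.56 by table), and 0.61 without MSC KO 1.

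Snhg6 was at 569 FPKM in WT 1 and 542 in WT 2, and at 220 in MSC KO 1 and 237 in MSC KO 2. Both MSC KO-labelled libraries lay well below both others, with a difference of -1.28 ± 0.09 (SE; adjusted p = 0.11). Without the table as a block the adjusted p was 0.027, and over 14 alternatives it ranged from 0.00792 to 0.439 with a difference of -1.33 to -1.23. Snord87, inside the same gene, was at 255 and 292 FPKM in WT 1 and WT 2 and at 115 and 156 in MSC KO 1 and MSC KO 2. It was lower without overlap as well (-1.02 ± 0.11, adjusted p = 0.12), and is named here after its values were seen, as the tested short member of that host.

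Snhg7,Snora43 was at 7.5 and 9.37 FPKM in WT 1 and WT 2 and at 19.5 and 27.3 in MSC KO 1 and MSC KO 2, without overlap. Its difference of 1.36 ± 0.10 (adjusted p = 0.11) was at least 2-fold in both tables, and because the row joins the host with an H/ACA gene, the shares of the pair cannot be told apart. Snora17, another H/ACA gene of that locus, was at 5.77 and 16.7 against 15.6 and 25.7 FPKM, with overlapping labels. Snhg3 was at 47.3 and 53.2 FPKM against 75.6 and 85.9, and Snhg12 at 76.0 and 80.0 against 106 and 127. Their differences were 0.67 ± 0.09 (adjusted p = 0.136) and 0.57 ± 0.10 (adjusted p = 0.152), without overlap between labels.

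Snhg1, a host of several C/D RNAs, was at 447 and 452 FPKM against 559 and 621 (0.39 ± 0.09, adjusted p = 0.179). Snhg4 was at 13.8 and 13.1 against 18.3 and 17.4 FPKM, and Snhg8 at 50.7 and 45.2 against 62.5 and 63.7. Gas5, a growth-arrest transcript that carries many C/D RNAs, was in its joined row at 91.6 and 97.8 FPKM against 105 and 145 (0.38 ± 0.13, adjusted p = 0.259). The difference of the Gas5,Mir5117 row was 0.15 with MSC KO 2 left out and 0.61 with MSC KO 1 left out, the latter with an adjusted p of 0.0253 and a range of 0.0253 to 0.8 over 14 alternatives. In each of these the labels did not overlap, and the fitted differences lay between 0.38 and 0.39 on the log2 scale. Snhg5 was nearly level, at 82.7 and 85.0 against 91.4 and 86.6 FPKM (0.08 ± 0.09). The low genes Snhg9 (3.51 and 1.3 against 4.88 and 10.5 FPKM) and Snhg10 (3.09 and 1.58 against 3.89 and 4.09) were higher without overlap but had standard errors of 0.54 and 0.23.

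**Figure D4:**
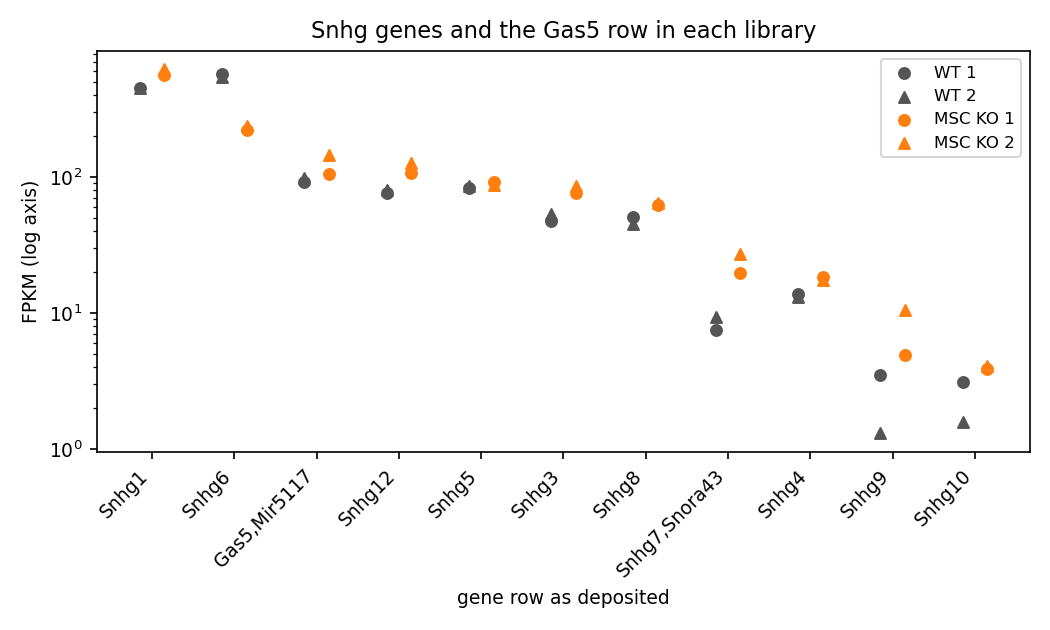
FPKM (log axis) of the Snhg genes and the Gas5 row, as deposited, in WT 1 and WT 2 (grey) and MSC KO 1 and MSC KO 2 (orange), ordered by mean. In each row but that of Snhg6 both orange points lie above both grey points, and for Snhg6 they lie below, at 220 and 237 against 569 and 542.

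Short members were then set beside their hosts, in 79 pairs with 60 host rows. The difference between labels lay at least 1 on the log2 scale from that of the host in 41 short members of the first table and 38 of the second. By that much, 9 stood above the host in both tables and 3 stood below. Of the hosts, 2 (first table) and 3 (second table) were themselves at least 2-fold apart. The median absolute distance between short RNA and host was 1.18 and 0.94. With the sign kept, the median of short RNA minus host was 0.11 and 0.44. The median difference between labels of the protein-coding hosts, also with its sign, was 0.06 and 0.10.

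**Figure D5:**
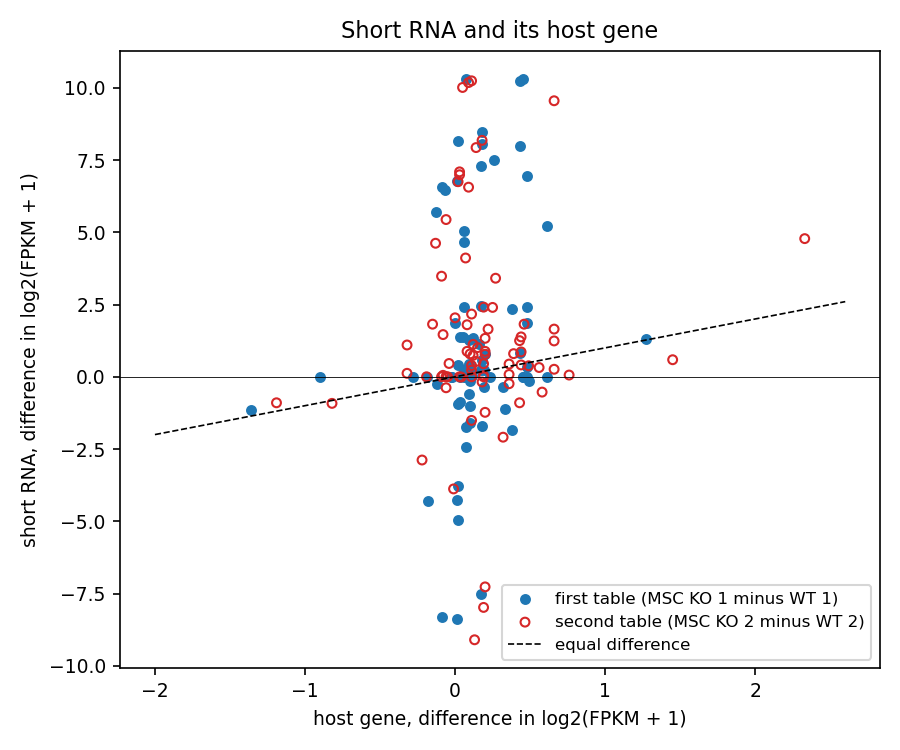
Difference between labels in log2(FPKM + 1) of each short RNA (vertical axis) against that of its host (horizontal axis), 79 pairs, in the first table (filled blue) and the second (open red). The dashed line marks equal differences. Most hosts lie within 1 of 0 while their short RNAs spread from about -9 to 10.

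Fitted differences of short RNAs from the same host lay apart in several hosts. In Rpl23a, Snhg12 and Nop56 the difference furthest from that of the host rested on values listed at 0. The low extremes of Rpl23a and Snhg12, Snord4a and Snora44, were above 0 in all 4 libraries. From Rpl23a, 3 tested short members ranged from -1.97 (Snord4a) to 5.15 (Snord42a) while the host differed by 0.09. Snord42a was above 0 in MSC KO 1 alone (SE 2.81). From Snhg12, 4 ranged from 0.30 (Snora44) to 5.70 (Snora61) beside a host difference of 0.57, and all 4 were positive. Snora61 was at 0 in WT 2 (SE 2.10). From Nop56, itself a core protein of C/D particles, 2 were at -3.64 (Snord110) and -0.62 (Snord57) beside 0.32 for the host. Snord110 was above 0 in WT 2 alone (SE 1.99), and Snord57 was at 0 in WT 1 and MSC KO 1. Closer together in the fit were the 2 from Rps12, at 0.17 and 0.60 beside 0.15 for the host. So were the 2 from Rps3, at -0.05 and 0.40 beside 0.14, and the 3 from Rpl13a, at -0.09 to 0.52 beside 0.22. Of these short RNAs, only Snora33 (Rps12) and Snord34 (Rpl13a) had the same sign in both tables. Snord100 (SE 0.64), Snord15a (SE 0.10), Snord15b (SE 1.10), Snord32a (SE 0.30) and Snord35a (SE 0.42) had opposite signs by table. Their fitted differences are averages of opposite differences, as in Snord15b with -1.60 and 2.41.

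The protein-coding hosts themselves differed little. The 22 ribosomal protein hosts had a median difference of 0.09, with Rpl13a at 0.22 and 17 higher and 2 lower in each table. The 34 other coding hosts had a median of 0.08, from -0.86 (Ncapd2) to 0.61 (Rabggtb), with 16 higher and 7 lower in both. Over all genes 31.2% were higher and 37.5% lower in each table. Ncapd2 was at 85.9 and 87.0 FPKM in WT 1 and WT 2 and at 45.6 and 48.9 in MSC KO 1 and MSC KO 2 (-0.86 ± 0.09, adjusted p = 0.12, and 0.0373 without the block; range over 14 alternatives 0.0088 to 0.557). Rabggtb, a prenyltransferase subunit gene that hosts a C/D RNA, was at 80.5 and 80.3 against 111 and 137 FPKM. Of the 4 other noncoding hosts, 3 were higher in both tables. The fourth, the joined row 1810032O08Rik,Snord1a, differed by 0.61 and -0.32, with opposite signs by table.

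The protein machinery of these RNAs differed little between labels, and no gene of 6 lists had an adjusted p under 0.05. Of the 4 C/D core protein genes none passed even an unadjusted 0.05, beside 20.4% of all genes, with a median difference of 0.10. Nop56 was at 111 and 117 FPKM against 151 and 135 (0.32 ± 0.11), and Nop58 at 80.8 and 88.5 against 94.6 and 89.5. Of the 4 H/ACA core genes none passed unadjusted either (median 0.01), with Gar1 at 69.7 and 61.1 against 66.8 and 49.9 FPKM and Nhp2 at 125 and 127 against 149 and 131. Among 15 genes of particle assembly and Cajal bodies, 2 were lower at an unadjusted p under 0.05 (median -0.02), a share near the 11.2% of all genes. They were Pih1d1, a subunit of the R2TP chaperone complex, at 62.3 and 58.4 against 47.7 and 41.9 FPKM, and Naf1, an H/ACA assembly factor, at 20.5 and 20.1 against 16.6 and 16.1.

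Of 21 genes of the U3 processome, which cuts the ribosomal precursor, 2 were higher and 1 lower at an unadjusted p under 0.05 (median 0.08), beside 9.2% and 11.2% of all genes. Pwp2 was at 5.23 and 5.67 against 8.5 and 7.18 FPKM, and Utp20 at 2.48 and 2.74 against 3.61 and 4.05. Of 18 tested genes of intron debranching and the RNA exosome, which trim snoRNA ends, 1 was higher unadjusted (median -0.00), beside 9.2% of all genes. It was Mphosph6, an exosome cofactor in ribosomal RNA maturation, at 48.0 and 48.9 against 75.3 and 79.5 FPKM, without overlap (0.66 ± 0.09, adjusted p = 0.139, and 0.0451 without the block; range over 14 alternatives 0.0132 to 0.602). Xrn2, a 5′ to 3′ exonuclease, was at 46.6 and 48.9 against 41.7 and 38.1. None of 13 tested genes of nonsense-mediated decay passed an unadjusted 0.05 (median -0.04), beside 20.4% of all genes. Smg5 was at 12.2 and 12.9 against 16.5 and 13.9, and Upf3a had a difference of -0.14 ± 0.09.

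In the authors' deposited tables, 0 members were marked significant in either table, where 0.632% and 0.556% of the genes tested here were. Snord58b had the lowest q-value of a member in the second table, 0.127, and shared the lowest in the first, 0.17, with Snhg6. The directions of Snord58b were opposite in the tables, while Snhg6 was lower in both, with a q-value of 0.218 in the second.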

How the data were processed

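RNA-seq values came from 2 gene tables deposited by the authors, each pairing the WT and MSC KO libraries of 1 number, in the layout of Cuffdiff's gene test. Program, version and annotation are not stated in the labels. From the layout and the range of values, the deposited unit was taken to be FPKM, beside the authors' q-value for each gene. Reads were aligned to mm9 with TopHat, per the submitters' processing notes. No column belonged to other samples. Whether the tables were normalized together is not stated, so differences were taken within a table. Rows with no gene symbol held 49.9% to 54.1% of the summed FPKM and were left out. For a repeated symbol, the row of highest mean stood.

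Genes with a mean of at least 1 FPKM were tested on log2(FPKM + 1) with limma 3.58.1 (R 4.3.3), two-sided, with a block for the table and a prior variance that follows the mean (2.36 prior and 1 residual degrees of freedom), adjusted by Benjamini-Hochberg over 10603 genes at 0.05. The test was checked on simulated data. The tables give no read totals, so depth was estimated from the steps between low values. Lengths, hosts and sequences came from GENCODE M21 (GRCm38), matched by symbol, with no coordinate conversion. The windows searched for box letters were widened to 15 bases after the sequences were seen. Tables were prepared with pandas 2.3.3 in Python 3.11.15.

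The members, lists and tests were chosen with earlier results of these data known, and Rnu73b stands in the rule because of them. Named were Rnu73b, Gas5, the Snhg genes, the 3 highest of each short class, up to 8 members at least 2-fold higher and up to 8 lower in both tables, up to 5 in opposite directions, their hosts, 2 genes of each list, called genes and Msc. Some genes that this takes are not reported here. The alternatives were other pseudocounts, filters, priors and scalings, summed repeats, no block, short RNAs left out and each library left out. The fits with a library left out had no block for the table, so they compared libraries across the tables.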

Additional observations from a re-analysis of the deposited data

How the results depend on the processing

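Of 62 genes taken by the naming rule and tested, 49 kept their direction under every alternative run. Rnu73b's loss of the call under 6 alternatives is given above; the causes were not tested. Members called (1) numbered 0 with a pseudocount of 5 FPKM, with no filter, without a trend in the prior, after quantile normalization and with short RNAs left out, where fewer genes were tested. Without the replicate block 4 members were called. Leaving out a library gave 0 to 39 members. Genes called over the whole table (1) numbered 0 under the first 4 of these, 3 with a mean of at least 5 FPKM, 153 without the replicate block and 26 with short RNAs left out, and 0 to 2672 with a library left out. Without an MSC KO-labelled library the residual spread is that of the WT pair alone, and the lone library is assumed to vary like it. Every fit with a library left out also had no replicate block. The counts past 2-fold in both tables could not be had with a library left out.

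Median differences with a library left out ranged from 0.00 to 1.97 for Snord, from -2.56 to 2.20 for Scarna (and -1.74 with a pseudocount of 0.1 FPKM), and from 0.40 to 0.61 for the Snhg genes with Gas5. For protein-coding hosts they ranged from 0.05 to 0.11, with 0.04 after quantile normalization and 0.11 after median-ratio rescaling. The Snora median was 0.58 to 1.41 with a library left out, the lowest without MSC KO 2.

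Direction turned, or the difference became 0 (Scarna3a), with some library left out in 13 genes, whose differences then ranged from -0.23 to 0.04 for Ckap5, -0.38 to 0.03 for Gar1, -0.11 to 0.16 for Rpl17, -0.01 to 0.04 for Rps3a, -3.67 to 2.76 for Scarna10, -7.06 to 2.11 for Scarna2, 0.00 to 4.62 for Scarna3a, -3.98 to 2.52 for Snora34, -0.56 to 0.51 for Snora68, -4.34 to 3.97 for Snord58b, -3.99 to 6.26 for Snord69, -4.89 to 3.49 for Snord73a and -0.01 to 0.27 for Wdr43. As those fits also lacked the block, the parts of the missing library and of the missing block in these turns cannot be told apart. After quantile normalization Rpl17 was at -0.01 and Rps3a at -0.02, and with a pseudocount of 5 FPKM Snora34 was at 0.09.

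WT 1 minus WT 2 and MSC KO 1 minus MSC KO 2 correlated at r = 0.06 across genes, so libraries of the same number hardly varied together. The replicate block stands for the table alone, and was kept because whether the tables were normalized together is not stated. Without it, Snhg6 (adjusted p = 0.027), Snord67 (0.0256), Ncapd2 (0.0373) and Mphosph6 (0.0451) passed the threshold, of which Snord67 is at 0 in both MSC KO-labelled libraries and had to differ. The part of depth in the zeros of the short RNAs was not tested.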
